A study of Mus musculus with 18 samples.

Results

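The axon guidance ligands and receptors were followed as 1 gene set in the striatum of mice with and without the zQ175 allele and with 1 or both alleles of CK2a'. The set was chosen by gene symbol alone, as every protein-coding Slit, Robo, semaphorin, plexin, neuropilin, ephrin, Eph, netrin and Unc5 gene together with Dcc and Neo1, and was kept where the counts summed over the libraries to at least 100. Of 70 genes that matched, 68 were kept out of the 55421 genes listed, and all 68 passed the filter on low counts that came before the tests. The genes left out were Efna4 and Ntn5. The set held 33 ligands and 35 receptors. Striata were dissected at 12 to 14 months of age and each mouse gave 1 library. The groups were WT (n = 5), zQ175 (n = 5), CK2a'(+/-) (n = 3) and zQ175:CK2a'(+/-) (n = 5). The zQ175 mouse is a full-length knock-in model of Huntington's disease, CK2a'(+/-) mice carry 1 disrupted allele of Csnk2a2, the gene of the CK2a' catalytic subunit of protein kinase CK2, and zQ175:CK2a'(+/-) mice carry both changes. The CK2a' line came from a mixed background and was bred onto that of the other mice, and the labels give the strain as C57BL/6 for all groups. No group carried an agent or a transgene driver. The labels give no sex for a library, and per the methods females outnumbered males in the WT and zQ175:CK2a'(+/-) groups and males outnumbered females in the zQ175 and CK2a'(+/-) groups, so sex was not balanced between zQ175 mice and the groups they were compared with.

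Axon guidance genes encode the cues and sensors by which growing axons choose their paths. Slits bind Robo receptors, class 3 semaphorins bind neuropilins that signal through plexins, most other semaphorins bind plexins directly, ephrins bind Eph receptor tyrosine kinases on the neighbouring cell, and netrins attract through Dcc and repel through Unc5 receptors. In the adult brain many of them stay expressed and act at synapses, and in the striatum EphA receptors and ephrins are known for the sorting of projection neurons into compartments and of their cortical and thalamic inputs.

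Levels between genes were compared per length, as CPM (each count relative to the TMM-adjusted total of its library) per 1000 bases of the deposited gene length. In WT mice 11 members reached a mean of at least 10, 44 lay from 1 to 10, and 13 lay under 1. Efnb3, a transmembrane ephrin, led with 27.7 ± 2.03 (SD, n = 5), followed by the receptor Epha4 at 21.9 ± 2.95, the membrane-anchored semaphorin Sema7a at 18.3 ± 3.93 and the transmembrane semaphorin Sema6b at 15.98 ± 1.81. In each of the 67 neighbouring pairs of this order the ranges of the 5 WT mice overlapped, so the order holds between distant members and not between neighbours. Among ligands, Slit3 led its family at 11.1 ± 2.74, Sema3e the class 3 semaphorins at 5.96 ± 0.93, Sema4d class 4 at 6.62 ± 1.01, Sema5b class 5 at 2.55 ± 0.55, Efna3 the ephrin A genes at 6.66 ± 0.53 and Ntn1 the netrins at 1.43 ± 0.19. Among receptors, Unc5a led its family at 13.6 ± 1.22, Ephb6, an Eph receptor without kinase activity, the EphB genes at 12.3 ± 1.40, Plxnd1 the plexins at 12.0 ± 3.03, Neo1 the netrin receptors related to Dcc at 10.3 ± 1.05, Robo2 at 10.01 ± 1.36 and Nrp2 the neuropilins at 1.46 ± 0.56. The lowest member was Epha1 at 0.11 ± 0.14 per length, with 127 counts in all 18 libraries. Epha1 overlaps Zyx on the opposite strand, which had 8279 counts, and Sema5b, with 5679 counts, overlaps Gm5963 on the opposite strand, with 2773, so both levels are uncertain, since the sources used here do not say whether counting used the strand. Ntn3 overlaps Tbc1d24 on its own strand, and its level is uncertain for that overlap.

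**Figure D1:**
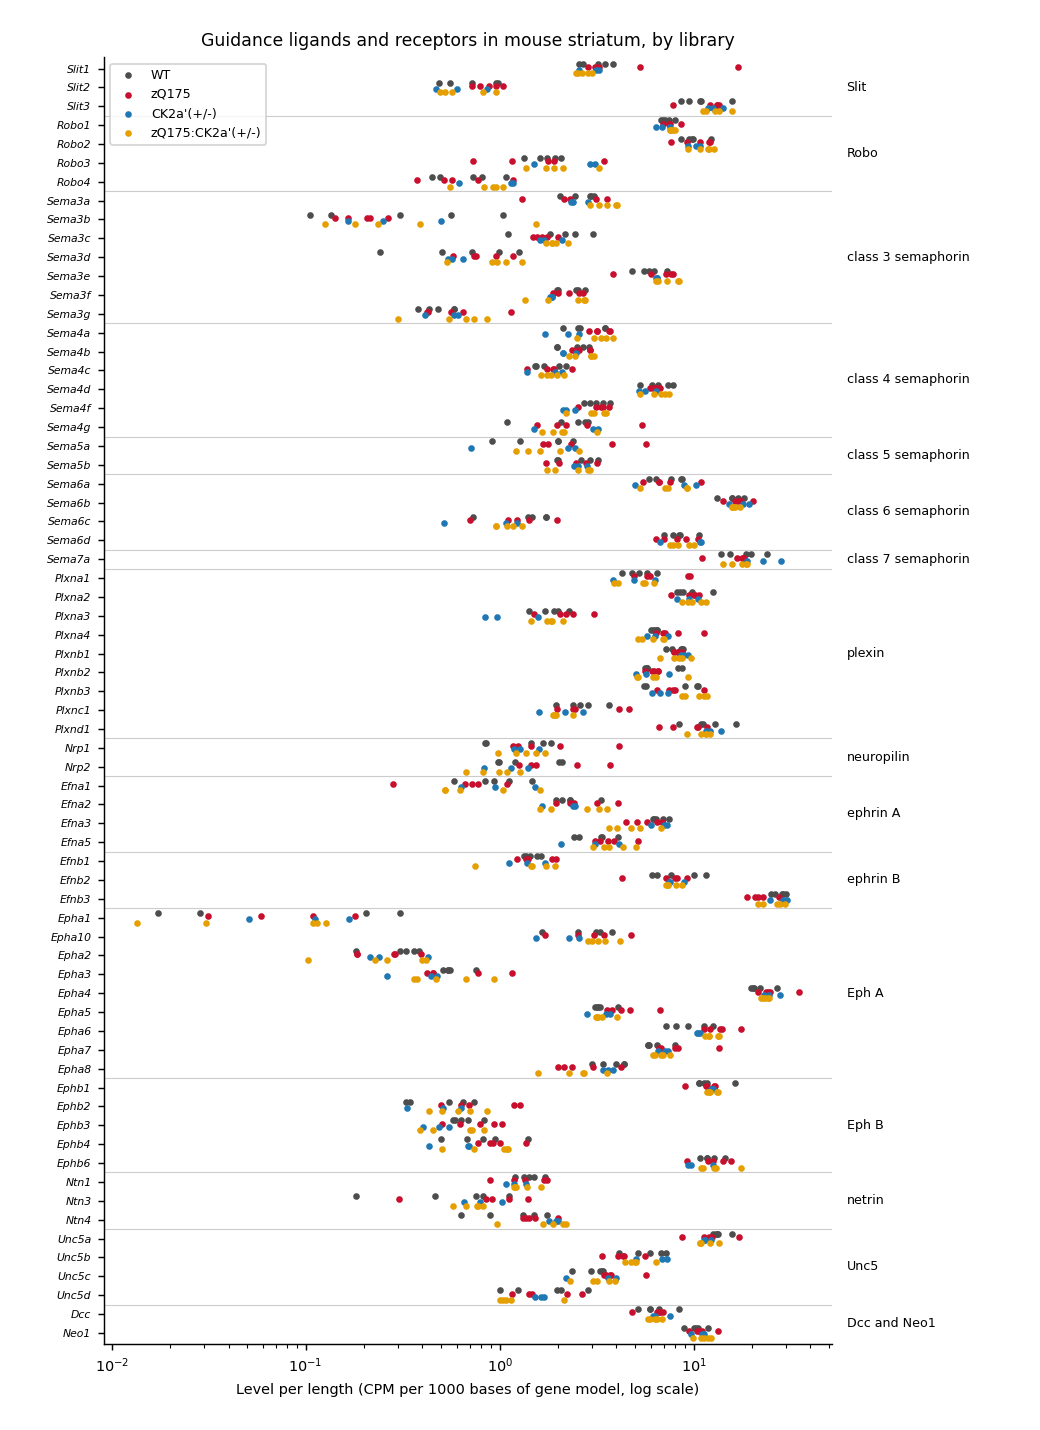
Level per length of each of the 68 members (horizontal axis, CPM per 1000 bases, log scale), 1 point per library coloured by group and members grouped by family. The 4 groups of points lie on top of each other for most members, Efnb3 and Epha4 lie farthest right and Epha1, whose 2 libraries without a count are not drawn, farthest left.

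The targeted gene followed the labels. On the log2 CPM scale, Csnk2a2 ranged from 3.88 to 4.32 where 1 CK2a' allele was left (8 mice) and from 4.88 to 5.23 where both were (10 mice). These ranges did not overlap, and p was 4.57e-05 in a two-sided exact permutation test, which is its smallest possible value here. The libraries held 13612381 to 22702547 counts. Markers of striatal projection neurons were present in every library, with the sum of 11 markers between 2949.5 and 6941 CPM in WT, 1608 and 3254 in zQ175, 4911 and 6874 in CK2a'(+/-), and 2680 and 3799 in zQ175:CK2a'(+/-) mice. Some libraries stood apart in markers of neighbouring tissue. The 12 cortical excitatory neuron markers, 11 of them above the filter, summed to 143 to 214 CPM in WT, 187 to 438 in zQ175, 133 to 244 in CK2a'(+/-) and 149 to 228 in zQ175:CK2a'(+/-) mice, and the highest sums were those of zQ175 replicate 5 (438) and replicate 1 (324). Neurod6, a transcription factor of cortical excitatory neurons, stood at 45.7 CPM in zQ175 replicate 5 and at no more than 4.97 elsewhere, with no count in zQ175:CK2a'(+/-) replicate 3. The 4 thalamic markers summed to 861 CPM in zQ175 replicate 1 and to between 29.3 and 394 in the other libraries. The 6 choroid plexus markers summed to over 100 CPM in WT replicates 1 and 3, CK2a'(+/-) replicate 1 and zQ175:CK2a'(+/-) replicate 2, at 976 to 3085 CPM, and to 11.5 to 21.7 elsewhere. In whole tissue, fewer cells of a type and less RNA per cell cannot be told apart.

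**Figure D2:**
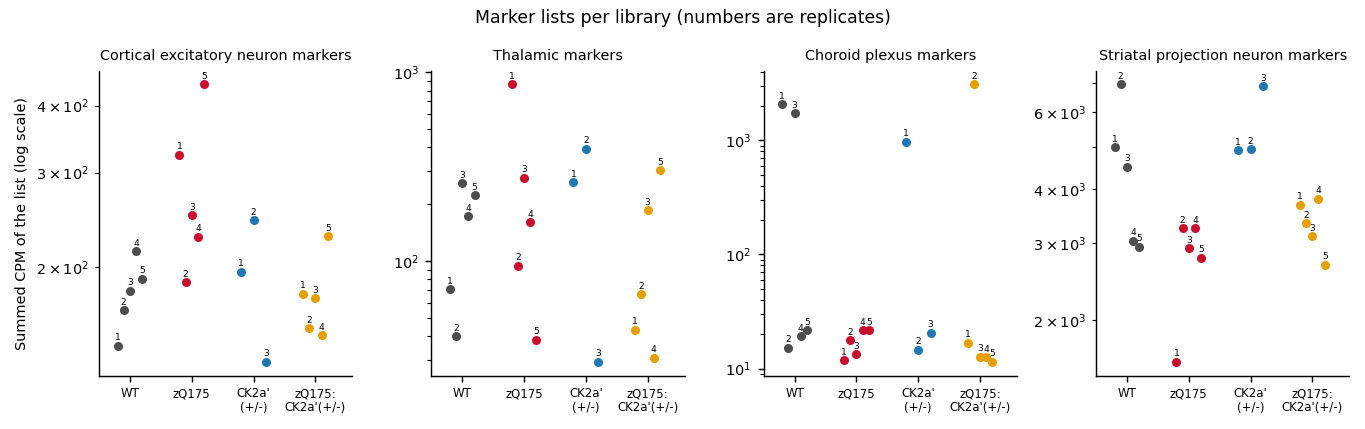
Summed CPM of 4 marker lists (vertical axis, log scale) in each library, by group, with the replicate number at each point. zQ175 replicate 5 is highest for cortical markers, zQ175 replicate 1 is highest for thalamic and lowest for projection neuron markers, and 4 libraries stand at 976 CPM or more for choroid plexus markers.

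The comparison of zQ175 with WT mice asked which guidance genes differ with the knock-in allele. A single member, the receptor Epha6, passed a Benjamini-Hochberg adjusted p (FDR) under 0.1 in edgeR's quasi-likelihood test of all 18 libraries, and it was higher in zQ175 mice. That is 1 of 68 members (1.47%), beside 230 of 20914 genes (1.10%) tested. At an unadjusted p under 0.05 there were 14 members (20.6%), beside 13.9% of all genes, of which 10 were higher (14.7% beside 6.79%) and 4 lower (5.88% beside 7.10%). Of those 14 members, 11 were receptors and 3 ligands. The median log2 fold change was 0.06 over the members and 0.00 over all genes tested. The 95% confidence interval lay within ±1 on the log2 scale for 58 of the 68 members. DESeq2 with default settings called 4 members, Epha5, Epha6 and Epha7 as higher and Efnb3 as lower, beside 5.15% of the 16443 genes it tested. The groups did not overlap in CPM for 1 member, the netrin receptor Unc5c, beside 2.44% of all genes.

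**Figure D3:**
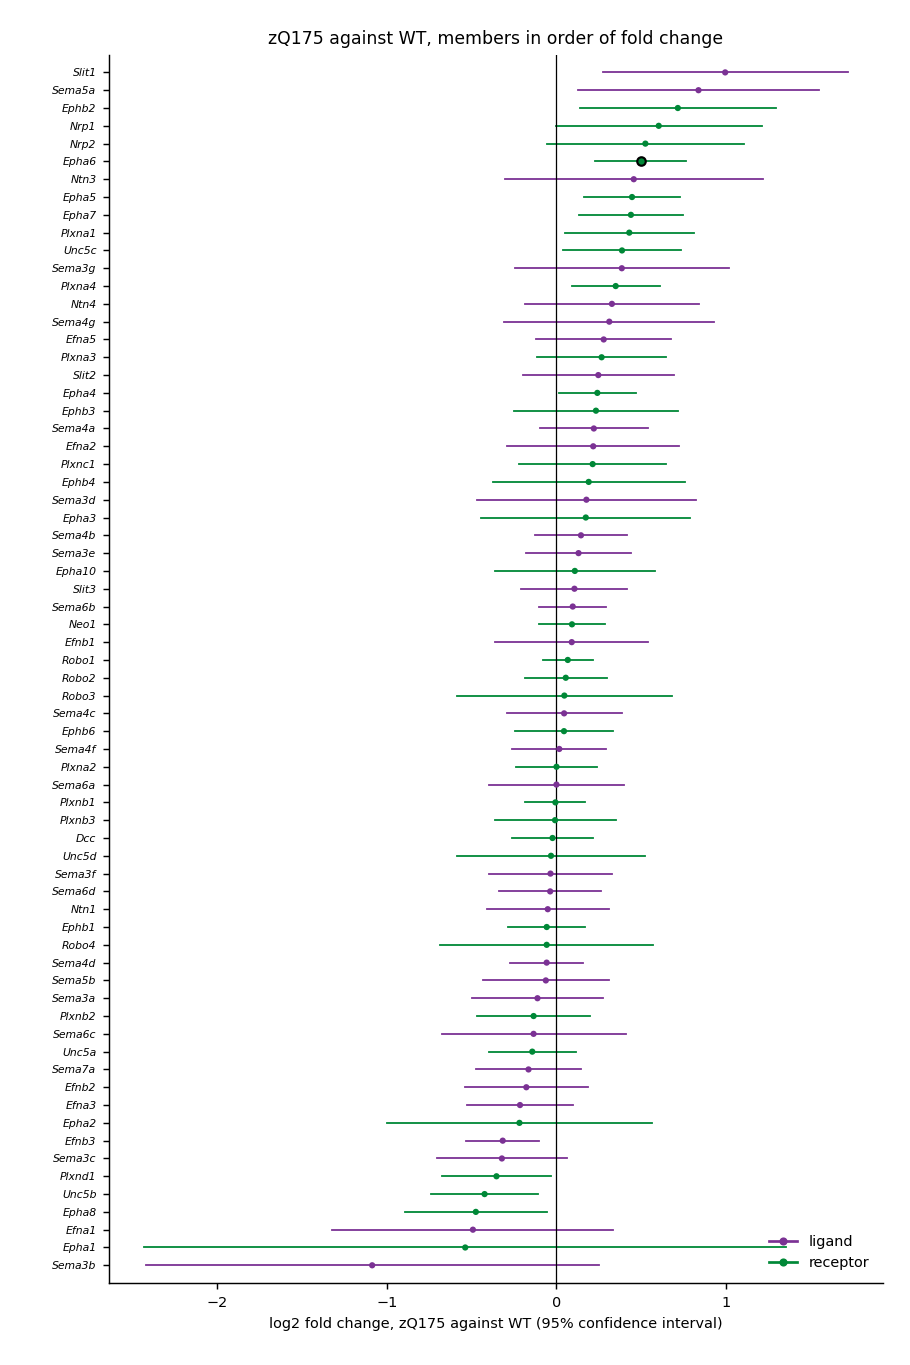
The log2 fold change of each member between zQ175 and WT mice (horizontal axis) with its 95% confidence interval, in order of size and coloured as ligand or receptor. The black ring marks Epha6, the member that passed FDR 0.1, and intervals of most others cross 0.

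Among the Eph receptors, most of which signal through a kinase domain of their own, 5 of 9 EphA genes had an unadjusted p under 0.05 (beside 13.9% of all genes), with 4 higher (beside 6.79%) and 1 lower (beside 7.10%), and the 9 had a median log2 fold change of 0.17. Epha6 (ENSMUSG00000055540, GRCm38 chr16:59653483-60605531, minus strand) stood at 43.0, 66.5, 38.2, 49.3 and 60.01 CPM in the 5 WT mice and at 64.4, 72.0, 74.4, 59.6 and 92.5 CPM in the 5 zQ175 mice. The lowest 3 WT mice lay below every zQ175 mouse, and the upper WT mice overlapped the lower zQ175 mice. Its log2 fold change was 0.50 ± 0.13 (SE; adjusted p = 0.0946 in edgeR). This call was lost when any 1 of 14 of the 18 libraries was left out, and held without WT replicate 2, WT replicate 5, zQ175 replicate 4 or CK2a'(+/-) replicate 3. Without zQ175 replicate 5 the log2 fold change was 0.39 (adjusted p = 0.185, edgeR), and without both zQ175 replicates 1 and 5 it was 0.42 (adjusted p = 0.270, edgeR). WT replicates 3 and 1, the lowest WT mice for Epha6, were libraries with choroid plexus markers, and without the 4 such libraries it was 0.31 (adjusted p = 0.601, edgeR). With the level of Xist, a transcript of female cells, as a covariate the log2 fold change was 0.51 and did not pass (adjusted p = 0.115, edgeR).

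Epha5 (ENSMUSG00000029245, chr5:84054761-84417382, minus strand) lay between 52.2 and 68.3 CPM in WT mice and stood at 79.0, 71.0, 63.7, 59.7 and 112 CPM in zQ175 mice. Only WT replicate 1 reached into the zQ175 range, and the log2 fold change of 0.45 ± 0.14 (SE) did not pass (adjusted p = 0.147, edgeR). Epha7 (ENSMUSG00000028289, chr4:28813131-28967499, plus strand) lay between 57.2 and 78.9 CPM in WT mice and stood at 65.5, 67.0, 79.2, 82.2 and 134 CPM in zQ175 mice, with a log2 fold change of 0.44 ± 0.15 (SE; adjusted p = 0.178, edgeR). Epha4, the most abundant Eph receptor, lay between 159 and 217 CPM in WT mice and between 174 and 281 in zQ175 mice, which gave a log2 fold change of 0.24 ± 0.11 (SE; adjusted p = 0.332, edgeR). The zQ175 mice other than replicate 5 lay between 174 and 200 CPM for Epha4. Without zQ175 replicate 5 its unadjusted p in edgeR was no longer under 0.05. The highest of all 18 libraries for Epha3, Epha4, Epha5, Epha6 and Epha7 was zQ175 replicate 5, the library with the highest sum of cortical markers. Without it the log2 fold changes were 0.27 for Epha5 and 0.22 for Epha7, and without zQ175 replicate 1 as well they were 0.19 and 0.27. The part of cortical tissue in these values was not tested.

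The 250 bases before the RefSeq transcription start (GRCm38.p6) are shown for Epha5, Epha6 and Epha7, the EphA genes that DESeq2 called together, and for Nrp2, described further on. Capitals mark matches on either strand to the GC box GGGCGG, the CCAAT box CCAAT and the E-box CAGATG. Matches to TATAAA, TGACGTCA (the cAMP response element) and GCGTGGGCG (an EGR site) were searched as well and none was in these 4 windows.
Epha5, chr5:84417383-84417632, minus strand: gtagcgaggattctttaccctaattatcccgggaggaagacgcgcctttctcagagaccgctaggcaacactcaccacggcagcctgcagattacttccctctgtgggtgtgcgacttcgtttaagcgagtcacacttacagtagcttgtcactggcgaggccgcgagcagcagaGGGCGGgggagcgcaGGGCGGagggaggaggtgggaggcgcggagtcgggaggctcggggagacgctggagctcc
Epha6, chr16:60605532-60605781, minus strand: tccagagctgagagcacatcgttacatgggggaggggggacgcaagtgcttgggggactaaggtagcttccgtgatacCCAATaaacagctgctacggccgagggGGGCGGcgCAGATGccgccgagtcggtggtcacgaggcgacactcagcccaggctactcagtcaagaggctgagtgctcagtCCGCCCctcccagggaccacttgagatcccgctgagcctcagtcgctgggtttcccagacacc
Epha7, chr4:28812881-28813130, plus strand: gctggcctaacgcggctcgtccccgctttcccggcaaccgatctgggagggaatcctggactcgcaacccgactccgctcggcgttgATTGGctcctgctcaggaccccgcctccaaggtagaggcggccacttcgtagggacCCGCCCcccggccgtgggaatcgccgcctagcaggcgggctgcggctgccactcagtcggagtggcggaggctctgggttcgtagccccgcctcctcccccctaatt
Nrp2, chr1:62703067-62703316, plus strand: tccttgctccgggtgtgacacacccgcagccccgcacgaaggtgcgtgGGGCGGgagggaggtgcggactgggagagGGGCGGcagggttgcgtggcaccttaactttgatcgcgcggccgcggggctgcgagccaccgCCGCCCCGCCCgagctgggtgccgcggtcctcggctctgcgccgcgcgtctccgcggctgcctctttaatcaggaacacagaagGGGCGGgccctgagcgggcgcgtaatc
Epha5 held 2 GC boxes, Epha6 held 2 GC boxes with 1 CCAAT box and 1 E-box, Epha7 held 1 GC box and 1 CCAAT box, and Nrp2 held 5 GC boxes, of which a pair share a base. Of the 68 members, 58 had a promoter in the RefSeq table used. A GC box was in 44 of those 58 (75.9%) and in 32.7% of all 32851 promoters of the table, a CCAAT box in 27.6% and 33.8%, an E-box in 6.90% and 14.4%, a TATA box in 3.45% and 12.4%, TGACGTCA in 1.72% and 1.55%, and GCGTGGGCG in 3.45% and 0.536%. The median GC content of these windows was 65.0% in the members and 52.4% in all promoters. A match is a run of letters and not a shown binding site.

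Other Eph receptors differed in sign. Epha8 stood at 20.7, 18.7, 20.6, 16.1 and 14.1 CPM in WT mice and at 19.8, 9.39, 14.2, 10.2 and 11.1 CPM in zQ175 mice. Its log2 fold change was -0.48 ± 0.20 (SE; adjusted p = 0.298, edgeR), and it was -0.69 without zQ175 replicate 1. Ephb2, an EphB receptor of low level, lay between 4.13 and 9.33 CPM in WT mice and stood at 15.98, 7.94, 6.27, 8.77 and 14.9 CPM in zQ175 mice. Ephb2 thus had a log2 fold change of 0.72 ± 0.28 (SE; adjusted p = 0.252, edgeR). The 2 high zQ175 libraries were again replicates 1 and 5, and without both it was 0.22. Ephb6 differed by less than the spread between mice, at 40.6 to 54.5 CPM in WT and 34.9 to 58.9 CPM in zQ175 mice.

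Of the ephrins, the ligands of the Eph receptors, Efnb3 (ENSMUSG00000003934, chr11:69554092-69560205, minus strand) stood at 95.1, 79.9, 92.4, 83.2 and 90.9 CPM in WT mice and at 60.1, 66.1, 68.5, 87.2 and 72.6 CPM in zQ175 mice. Only zQ175 replicate 4 reached into the WT range. The log2 fold change was -0.32 ± 0.10 (SE; adjusted p = 0.164, edgeR), and was -0.26 without zQ175 replicates 1 and 5. Markers of oligodendrocytes were lower in zQ175 mice at the same time, with the 6 markers summing to 5399 to 7459 CPM in WT and 3525 to 5302 CPM in zQ175 mice, as were those of some other cells. The 6 interneuron markers summed to 288 to 339 CPM in WT and 161 to 279 CPM in zQ175 mice, without overlap, the 8 microglia markers had median sums of 283 and 210 CPM, and projection neuron markers were lower as given above. Endothelial markers had median sums of 99.6 CPM in WT and 98.6 CPM in zQ175 mice. Sums of astrocyte and oligodendrocyte precursor markers overlapped between these groups. The part of any of these cells in the Efnb3 value was not tested. Efna3 lay between 15.1 and 18.1 CPM in WT and between 10.97 and 16.7 CPM in zQ175 mice. No ephrin A gene had an unadjusted p under 0.05, and Efnb3 was the only ephrin B gene that had one.

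In the Slit family 1 library stood far above the rest. Slit1 (ENSMUSG00000025020, chr19:41600257-41743665, minus strand), a secreted repellent, stood at 22.9, 15.9, 20.7, 15.1 and 19.0 CPM in WT mice and at 31.3, 18.4, 19.3, 16.9 and 99.96 CPM in zQ175 mice. zQ175 replicate 5 was 3.19 times the next highest of all libraries and 5.62 times the median of the other 17. The log2 fold change of Slit1 was 0.99 ± 0.35 (SE; adjusted p = 0.194, edgeR) with all mice, 0.20 without zQ175 replicate 5, and -0.04 without zQ175 replicates 1 and 5. The same library had the highest Neurod6, at 45.7 CPM, and Slc17a7, the glutamate transporter of cortical terminals and cell bodies, at 202 CPM beside 4.35 to 66.8 CPM elsewhere. Slit2 and Slit3 had no p under 0.05, and the 4 Robo genes, the Slit receptors, had log2 fold changes between -0.06 and 0.07, with no p under 0.05. Robo2 lay between 146 and 208 CPM in WT and between 131 and 207 CPM in zQ175 mice.

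Among plexins, the receptors of semaphorins, 3 of 9 had an unadjusted p under 0.05, beside 13.9% of all genes. Plxna4 stood at 91.6, 91.5, 85.4, 89.0 and 86.8 CPM in WT mice and at 117, 98.4, 101, 90.3 and 159 CPM in zQ175 mice. WT mice were close together, and zQ175 replicate 4 alone lay within their range. Plxna4 had a log2 fold change of 0.35 ± 0.12 (SE; adjusted p = 0.203, edgeR) and 0.12 without zQ175 replicates 1 and 5. Plxna1 lay between 38.8 and 58.4 CPM in WT mice, and at 85.2 and 86.7 CPM in zQ175 replicates 1 and 5 but between 44.8 and 53.8 CPM in the other 3. Its log2 fold change of 0.43 ± 0.18 (SE; adjusted p = 0.303, edgeR) came to 0.07 without those replicates. Plxnd1, the receptor of Sema3e, had a log2 fold change of -0.35 ± 0.15 (SE; adjusted p = 0.313, edgeR), with 61.6 to 121 CPM in WT and 48.2 to 85.8 CPM in zQ175 mice. WT replicate 2 alone stood at 121 CPM for Plxnd1, and the other WT mice lay between 61.6 and 94.5 CPM.

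The neuropilins, coreceptors that give class 3 semaphorins their binding site, were highest in the same 2 zQ175 libraries. Nrp2 (ENSMUSG00000025969, chr1:62703285-62818695, plus strand) stood at 25.0, 11.7, 24.0, 14.2 and 11.6 CPM in WT mice and at 29.7, 18.2, 17.1, 14.9 and 44.0 CPM in zQ175 mice. Those groups overlapped, and the log2 fold change of 0.52 ± 0.28 (SE) did not pass (adjusted p = 0.417, edgeR) and came to -0.05 without zQ175 replicates 1 and 5. The upper WT values were those of WT replicates 1 and 3, libraries with choroid plexus markers, and without the 4 such libraries it was 0.99 (adjusted p = 0.498, edgeR). Nrp1 was at 40.3 CPM in zQ175 replicate 5, 2.01 times the next highest library. Of the semaphorins themselves, 1 of 20 had a p under 0.05, a share below the 13.9% of all genes. That was Sema5a, a transmembrane guidance ligand, which stood at 23.9, 17.1, 44.6, 37.3 and 37.3 CPM in WT mice and at 106, 33.3, 43.5, 31.4 and 71.2 CPM in zQ175 mice. Sema5a had a log2 fold change of 0.84 ± 0.34 (SE; adjusted p = 0.277, edgeR), and it was 0.49 without zQ175 replicate 1, the library with the highest thalamic sum, and 0.17 without replicates 1 and 5. The part of thalamic tissue in the Sema5a value was not tested. Sema3b, singled out after its values were seen, had its 4 highest levels, 2.37 to 7.32 CPM, in the 4 libraries with choroid plexus markers, and lay between 0.50 and 1.86 CPM in the other 14. Sema3b had a log2 fold change of -1.09 ± 0.64 (SE; adjusted p = 0.477, edgeR) between zQ175 and WT mice and of -1.28 ± 0.64 (SE; adjusted p = 0.825, edgeR) between zQ175 and zQ175:CK2a'(+/-) mice. Without those 4 libraries the values were 0.12 and -0.23.

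The Unc5 genes encode netrin receptors that mediate repulsion. Unc5b stood at 25.9, 32.2, 45.1, 37.3 and 42.3 CPM in WT mice and at 21.2, 27.5, 27.0, 35.2 and 25.5 CPM in zQ175 mice, which gave a log2 fold change of -0.42 ± 0.15 (SE; adjusted p = 0.206, edgeR). Unc5c stood at 45.1, 56.4, 63.2, 64.7 and 65.1 CPM in WT mice and at 108, 66.0, 71.8, 70.9 and 67.9 CPM in zQ175 mice. The groups did not overlap for Unc5c, by a margin of less than 1 CPM between the highest WT and the lowest zQ175 mouse. Unc5c had a log2 fold change of 0.39 ± 0.17 (SE; adjusted p = 0.306, edgeR) and 0.23 without zQ175 replicate 1. No netrin had a p under 0.05, nor did Dcc or Neo1, whose intervals both lay within ±0.585 on the log2 scale.

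**Figure D4:**
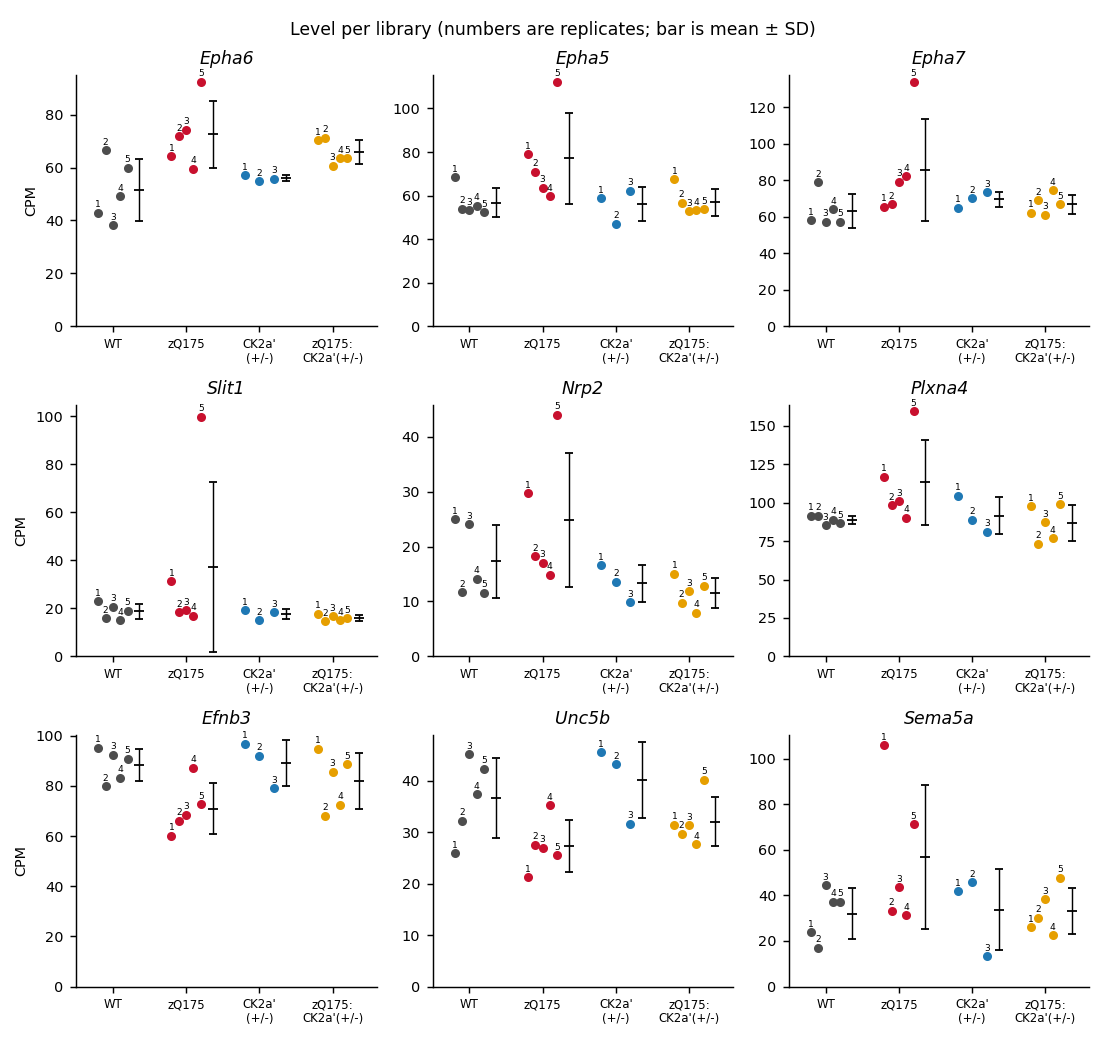
CPM of 9 members (vertical axes from 0) in each library by group, with the replicate number at each point and the mean ± SD as a black bar. zQ175 replicate 5 is the highest point for Epha5, Epha6, Epha7, Slit1, Nrp2 and Plxna4, zQ175 replicate 1 for Sema5a, and Efnb3 and Unc5b are mostly lower in zQ175 mice.

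How often each library was the extreme one was counted over all members. zQ175 replicate 1 was the highest of 18 libraries for 15 members (22.1%, beside 10.7% of all genes tested) and the lowest for 15 (22.1%, beside 9.50%). zQ175 replicate 5 was the highest for 14 members (20.6%, beside 7.76% of all genes) and the lowest for 1. CK2a'(+/-) replicate 3 was the lowest for 13 members (19.1%, beside 8.60%). Of the 14 members with a p under 0.05 between zQ175 and WT mice, 9 kept it without zQ175 replicate 1, 7 without replicate 5, and 4 without both, namely Efnb3, Epha6, Epha7 and Epha8. Of all genes, 2113 had a p under 0.05 without both libraries and 2906 with all. No gene passed FDR 0.1 in edgeR without zQ175 replicate 5, where 2566 had a p under 0.05, without WT replicate 3, where 2367 had one, or without zQ175 replicates 1 and 5, and 10 genes passed without WT replicate 1. Without the 4 libraries with choroid plexus markers, 8 of the 14 kept a p under 0.05, while 1658 of all genes had one, and 1 gene in all passed FDR 0.1.

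**Figure D5:**
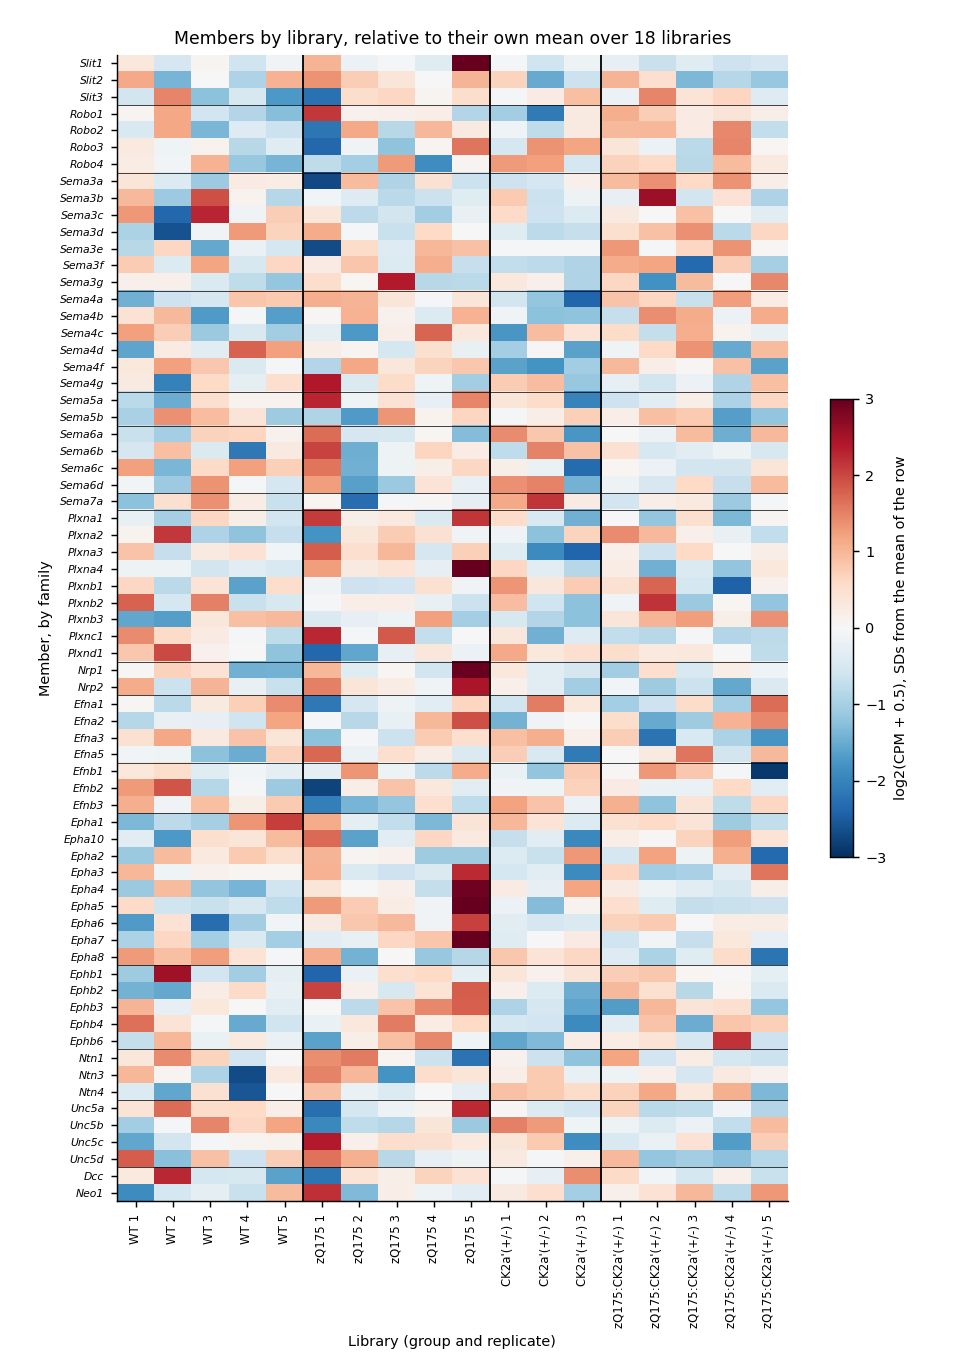
Each member (rows, by family) in each library (columns, by group), as log2(CPM + 0.5) in SDs from the mean of the row. The columns of zQ175 replicates 1 and 5 hold most of the darkest cells, with zQ175 replicate 5 highest for Epha3 to Epha7, Slit1, Nrp1 and Nrp2.

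Whether the levels in zQ175 mice with 1 CK2a' allele differed from WT was the next comparison. No member passed FDR 0.1 in edgeR or DESeq2 between zQ175:CK2a'(+/-) and WT mice, beside 0.0143% of all genes in edgeR. At an unadjusted p under 0.05 there were 6 members (8.82%), beside 9.13% of all genes, and no member was without overlap, beside 1.84%. Epha6 lay between 60.7 and 71.4 CPM in zQ175:CK2a'(+/-) mice and its log2 fold change against WT was 0.36 ± 0.13 (SE; adjusted p = 0.401, edgeR), which came to 0.14 without the 4 libraries with choroid plexus markers. For Epha5 the log2 fold change was 0.00, with a 95% confidence interval from -0.28 to 0.29, and for Epha7 it was 0.08, from -0.23 to 0.39. Epha8 lay between 7.39 and 16.8 CPM, a log2 fold change of -0.57 ± 0.20 (SE; adjusted p = 0.399, edgeR). Efna3 stood at 16.5, 8.90, 12.9, 11.6 and 9.80 CPM, with a log2 fold change of -0.44 ± 0.15 (SE; adjusted p = 0.394, edgeR), and replicate 1 alone lay within the WT range. The secreted ligands Ntn4, Sema3a and Sema3e had log2 fold changes of 0.54, 0.40 and 0.32 with adjusted p from edgeR of 0.519, 0.525 and 0.533.

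zQ175 mice were then compared with zQ175:CK2a'(+/-) mice, which asks how the lost CK2a' allele bears on the knock-in. This comparison uses the same 5 zQ175 libraries as the one against WT, so the fold changes are not independent of it. No member passed FDR 0.1 in edgeR or DESeq2, beside 0.0143% of all genes in edgeR. At an unadjusted p under 0.05 there were 9 members (13.2%), beside 6.27% of all genes. Of the 9, 8 were higher in zQ175 mice (11.8% of members, beside 735 of the 20914 genes tested) and 1 was lower (1.47%, beside 577). No member was without overlap, beside 1.14%. Nrp2 stood at 15.1, 9.76, 11.8, 7.96 and 12.9 CPM in zQ175:CK2a'(+/-) mice, and all but zQ175 replicate 4, at 14.9 CPM, lay above them. The log2 fold change of Nrp2 was 1.11 ± 0.28 (SE; adjusted p = 0.431, edgeR), 0.79 without zQ175 replicate 5 and 0.54 without replicates 1 and 5. Part of this difference lay below WT, since Nrp2 in zQ175:CK2a'(+/-) against WT mice was -0.59 ± 0.28 (SE; adjusted p = 0.549, edgeR). Slit1 lay between 14.7 and 17.8 CPM in zQ175:CK2a'(+/-) mice. Its log2 fold change was 1.21 ± 0.35 (SE; adjusted p = 0.499, edgeR), 0.42 without zQ175 replicate 5 and 0.18 without replicates 1 and 5.

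Among the other members with a p under 0.05 in that comparison, Epha5 had a log2 fold change of 0.44 ± 0.14 (SE; adjusted p = 0.585, edgeR) and Plxna4 of 0.38 ± 0.12 (SE; adjusted p = 0.597, edgeR). Without zQ175 replicate 5 they were 0.26 and 0.22, and without replicates 1 and 5 they were 0.19 and 0.15. Plxnc1, the receptor of Sema7a, stood at 38.9, 20.05, 34.3, 16.5 and 20.3 CPM in zQ175 mice and between 15.7 and 20.02 CPM in zQ175:CK2a'(+/-) mice. For Plxnc1 the log2 fold change was 0.63 ± 0.21 (SE; adjusted p = 0.597, edgeR). Against WT mice Plxnc1 was at 0.21 in zQ175 and at -0.42 in zQ175:CK2a'(+/-) mice (adjusted p = 0.701 and 0.564, edgeR). Sema3a, a secreted repellent, was the only one of the 9 lower in zQ175 mice, at 18.1, 49.4, 29.8, 43.3 and 32.0 CPM against 49.5, 55.7, 45.1, 55.4 and 40.3 CPM. This was a log2 fold change of -0.51 ± 0.19 (SE; adjusted p = 0.637, edgeR), and -0.27 without zQ175 replicates 1 and 5. Without zQ175 replicates 1 and 5, the members still at a p under 0.05 were Nrp2 and Plxnc1.

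CK2a'(+/-) mice, without the knock-in, were compared with WT mice in 3 against 5 libraries. No member passed FDR 0.1 in edgeR or DESeq2, beside 0.0143% of all genes in edgeR, and 4 had an unadjusted p under 0.05 (5.88%), beside 4.48% of all genes. The groups did not overlap for 6 members (8.82%), beside 3.20% of all genes. Ntn4 lay above the WT mice, and Epha3, Ephb3, Sema3f, Sema4f and Unc5a lay below them. Plxna3 stood at 12.4, 7.66 and 6.61 CPM in CK2a'(+/-) mice and between 11.2 and 17.99 CPM in WT mice, a log2 fold change of -0.72 ± 0.22 (SE; adjusted p = 0.999, edgeR). Sema4f stood at 11.7, 11.3 and 12.9 CPM against 14.5 to 19.5 CPM, a log2 fold change of -0.49 ± 0.16, and Ntn4 at 7.47, 7.26 and 6.74 CPM against 2.35 to 6.54 CPM, a log2 fold change of 0.66 ± 0.28 (SE). Sema4a, Sema7a and Sema6c had log2 fold changes of -0.39, 0.34 and -0.58, and over the alternatives these lay from -0.68 to -0.24, from 0.18 to 0.47 and from -0.88 to -0.29. With all libraries the adjusted p of each of these members was 0.999 in edgeR. With 3 mice the intervals were wide, and 54 of the 68 lay within ±1 on the log2 scale.

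The interaction, coded as the effect of zQ175 with 1 CK2a' allele minus its effect with both, was tested for each member. No member passed FDR 0.1 in edgeR or DESeq2, beside 0.00478% of all genes in edgeR, and 5 had an unadjusted p under 0.05 (7.35%), beside 5.39% of all genes. Plxnb3, a plexin of oligodendrocytes, had an interaction of 0.62 ± 0.26 (SE) on the log2 scale, with 35.9 to 68.7 CPM in WT, 41.8 to 73.3 in zQ175, 39.8 to 47.8 in CK2a'(+/-) and 56.5 to 75.9 in zQ175:CK2a'(+/-) mice. The interaction was -0.43 for Plxna4, -0.50 for Epha7, -1.13 for Slit1, 0.60 for Sema3a and -0.34 for Epha4, each with an adjusted p of 0.916 in edgeR. For Epha6 it was -0.26, with a 95% confidence interval from -0.67 to 0.15, and for Nrp2 -0.74, from -1.63 to 0.15. The difference of Nrp2 between zQ175 and WT mice, which enters the latter value, came to -0.05 without zQ175 replicates 1 and 5. Without zQ175 replicates 1 and 5 the interaction was -0.20 for Plxna4, -0.33 for Epha7, -0.10 for Slit1, 0.36 for Sema3a and -0.18 for Epha4, and without the libraries with choroid plexus markers it was -0.26 for Plxna4. The tests did not show that any member responded to zQ175 differently with 1 or both CK2a' alleles, and intervals of this width leave sizeable differences possible.

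Genes that act with these ligands and receptors were taken from a list of 100 genes, of which 98 were tested. Between zQ175 and WT mice 2 passed FDR 0.1 in edgeR (2.04%, beside 1.10% of all genes), both higher. At an unadjusted p under 0.05 there were 25 (25.5%, beside 13.9%), of which 18 were higher (18.4%, beside 6.79%) and 7 lower (7.14%, beside 7.10%), with a median log2 fold change of 0.06 over the list and 0.00 over all genes. Both that passed were among the 27 tested of the other ligands and coreceptors. Chl1, a cell adhesion molecule that binds neuropilin, stood at 80.4, 64.8, 67.5, 75.7 and 72.2 CPM in WT mice and at 135, 93.0, 98.5, 86.0 and 121 CPM in zQ175 mice, without overlap. Chl1 had a log2 fold change of 0.57 ± 0.10 (SE; adjusted p = 0.0442, edgeR). Bdnf, a neurotrophin made in cortical neurons and carried to the striatum, stood between 0.32 and 1.74 CPM in WT mice and at 10.1, 3.88, 2.09, 3.03 and 14.5 CPM in zQ175 mice. Its log2 fold change was 2.72 ± 0.65 (SE; adjusted p = 0.0726, edgeR), and its highest levels were in zQ175 replicates 1 and 5, those highest in cortical markers. Without zQ175 replicate 5 neither gene passed (adjusted p = 0.106 for Chl1 and 0.168 for Bdnf, edgeR), and without replicate 1 Chl1 passed (adjusted p = 0.0967, edgeR) and Bdnf did not (adjusted p = 0.117, edgeR). Without both replicates the log2 fold changes were 0.36 for Chl1 and 1.55 for Bdnf, and neither passed (adjusted p = 0.245 and 0.430, edgeR). Without the 4 libraries with choroid plexus markers they were 0.59 and 2.90, and neither passed (adjusted p = 0.496 for both, edgeR). DESeq2 called 6 of 99 listed genes in this comparison, a share near the 5.15% of all genes it tested, with Chl1, Bdnf, Nrcam, Flrt2 and Trio higher and Cfl1 lower. None of the 18 effectors of Slit and Robo, 22 of semaphorins and plexins, 14 of ephrins and Eph receptors or 12 of netrins passed in edgeR, and Trio, a guanine nucleotide exchange factor downstream of Dcc, came closest at 0.27 ± 0.07 (SE; adjusted p = 0.104, edgeR). In the other 4 comparisons none of the 98 passed FDR 0.1 in edgeR. At an unadjusted p under 0.05 there were 5 (5.10%, beside 9.13% of all genes) in zQ175:CK2a'(+/-) against WT, 12 (12.2%, beside 6.27%) in zQ175 against zQ175:CK2a'(+/-), 5 (5.10%, beside 4.48%) in CK2a'(+/-) against WT and 8 (8.16%, beside 5.39%) in the interaction. DESeq2 called 1 of 99 in those comparisons, beside 0.722% of the genes it tested in that of zQ175:CK2a'(+/-) with WT. It was Flrt2, a cell surface ligand of Unc5 receptors, as higher in zQ175:CK2a'(+/-) than in WT mice, at 42.0 to 51.3 against 27.8 to 37.3 CPM.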

How the data were processed

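RNA from the striatum of 18 mice was sequenced as stranded, ribosome-depleted libraries. Per the labels and the methods, the authors used Trimmomatic for trimming and HISAT2 2.1.0 for alignment against GRCm38. They left out duplicate, unmapped and poorly mapped reads, and deposited raw counts per gene from Subread 1.6.2 together with a gene length. Whether counting used the strand is not given in the sources used here. The columns were matched to the labels by name, and groups came from the labels. Depth was 13612381 to 22702547 counts per library.

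From these counts, genes were filtered with filterByExpr, scaled by TMM and fitted over all 18 libraries with the quasi-likelihood test of edgeR 4.0.16 in R 4.3.3, with Benjamini-Hochberg adjustment over 20914 genes and a threshold of 0.1. CPM used the TMM-scaled library sizes. DESeq2 1.42.0, DESeq2 size factors, no filter, a threshold of 0.05, a fit of only the groups compared, Xist level as a covariate, the replicate number as a block and leaving out each library were the alternatives. The scripts were tested on simulated data. p-values measure the spread between mice. Named members were, for zQ175 against WT, those that passed and further ones by p up to 12, likewise up to 6 for each other comparison, the highest of each family per length, and Slit1 and Nrp2. Epha3, Ephb3, Nrp1, Sema3b, Sema3f and the low members were named after their values were seen. The members and lists were chosen with earlier results of these data known. Promoters came from RefSeq (GRCm38.p6).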

Additional observations from a re-analysis of the deposited data

Results flagged for a closer look

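Members whose highest or lowest library stood far from the others of its group, by Dixon's test at the 95% level, were searched in all 68 members and the 3 groups of 5 mice. The search marked 16 of 204 groups (7.84%). The nominal rate of the test, about 1 in 20, is for independent and normally spread values, and members measured in the same libraries are not independent. The share over all genes was not computed, so the count is not read as a result about the members. Of the 16, 3 were in zQ175 replicate 5 and 3 in zQ175 replicate 1. In replicate 5 Slit1 stood at 99.96 CPM beside 16.9 to 31.3 in the other zQ175 mice, Epha7 at 134 CPM beside 65.5 to 82.2, and Epha4 at 281 CPM beside 174 to 200. In zQ175 replicate 1 the netrin receptor Unc5c stood at 108 CPM beside 66.0 to 71.8, the Slit family ligand Slit3 at 47.6 CPM beside 73.6 to 81.6, and the netrin receptor Dcc at 63.5 CPM beside 85.6 to 91.1. Sema7a was low in zQ175 replicate 2, at 36.3 CPM beside 55.4 to 59.7. In WT mice Epha5 stood at 68.3 CPM in replicate 1 beside 52.2 to 55.4, and Epha3 at 6.58 CPM beside 4.41 to 4.83. In WT replicate 2 Unc5a stood at 65.4 CPM beside 52.5 to 55.7 and Ephb1 at 115 CPM beside 74.3 to 81.7, and in WT replicate 5 Efna2 stood at 7.14 CPM beside 4.14 to 4.92. In zQ175:CK2a'(+/-) mice Epha5 stood at 67.4 CPM in replicate 1 beside 52.7 to 56.7, and Unc5d at 19.7 CPM beside 9.24 to 10.6. Plxnc1 stood at 20.02 CPM in replicate 3 beside 15.7 to 16.4, and Sema3b at 7.32 CPM in replicate 2, a library with choroid plexus markers, beside 0.60 to 1.86.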

How the results depend on the processing

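Between zQ175 and WT mice 1 member passed as reported, and 4 did with DESeq2 (Efnb3, Epha5, Epha6 and Epha7), 4 with no filter on low counts (Epha5, Epha6, Epha7 and Slit1), 1 with DESeq2 size factors, and 0 at an FDR of 0.05, with the replicate block, with Xist level as a covariate or with only the 2 groups fitted. Leaving out 1 library gave 0 to 3 members. Leaving out zQ175 replicates 1 and 5, or the 4 libraries with choroid plexus markers, both chosen after seeing the data, gave 0. Between zQ175 and zQ175:CK2a'(+/-) mice no member passed as reported and 2 did with no filter, Nrp2 and Slit1 (adjusted p = 0.0144 and 0.0235, edgeR). In the other 3 comparisons no member passed under any alternative run. The log2 fold change against WT turned to -0.036 for Slit1 and -0.046 for Nrp2 without zQ175 replicates 1 and 5. Of 956 values of named members under alternatives, 924 kept direction and side of the threshold, 2 reversed, 19 lost and 11 gained a call. Only Epha6 between zQ175 and WT mice was called as reported, so no other member could lose a call. All 19 losses were those of Epha6, which passed in 7 of 26 alternatives, so the 924 do not measure how well that call holds. Adjusted p for Epha6 between zQ175 and WT mice ran from 0.0185 to 0.601 over 26 alternatives. Over all genes, 230 passed between zQ175 and WT mice, 847 with DESeq2, 451 with no filter, 98 with the replicate block, 51 at an FDR of 0.05, 0 with only the 2 groups and 0 to 587 with 1 library left out. The counts as reported, with DESeq2 and with no filter were 3, 124 and 85 for zQ175:CK2a'(+/-) against WT, 3, 39 and 51 for zQ175 against zQ175:CK2a'(+/-), 3, 11 and 19 for CK2a'(+/-) against WT, and 1, 15 and 10 for the interaction. Same-numbered libraries were no more alike than others. Their deviations correlated at a median of -0.009 (-0.136 to 0.120) over 24 pairs, and those of differently numbered libraries at 0.004 (-0.234 to 0.187) over 96. Whether same-numbered mice shared a litter or batch was not tested. With the replicate block Epha6 had a log2 fold change of 0.50 (adjusted p = 0.101, edgeR). The cause of these changes was not tested. Members of low count are limited by depth.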
